A study of Homo sapiens with 12 samples.

Results

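JUN, JUNB, JUND, FOS, FOSB, FOSL2, ATF3, EGR1, IER2 and KLF6 belong to the AP-1 and immediate early genes, which cells switch on within minutes of a stimulus. Their acetylation of histone H3 at lysine 9 (H3K9ac), a mark found at active promoters and enhancers, was read in MOLM-13, an established line of human acute myeloid leukaemia cells. The 10 genes were taken by name, with earlier results of these data known. Every H3K9ac region that overlapped a gene's RefSeq body with 5 kb added on each side was counted as theirs. That gave 28 of the 47648 regions in the deposited table. The main region of a gene is the one of its regions with the highest mean over the 6 libraries.

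The study asked how inhibition of KAT6A, a histone acetyltransferase, changes the chromatin of these leukaemia cells. One group of 3 libraries came from MOLM-13 cells given DMSO, the solvent control, and the other group of 3 from MOLM-13 cells given 4 µM of the KAT6A inhibitor WM-1119 for 4 days. All 6 libraries are chromatin immunoprecipitates from this 1 cell line, and the 6 input samples of the series were not analysed here. The titles number the libraries 1 to 3 within each group without saying whether they are separate cultures or what a shared number stands for. The p-values therefore speak of the spread among these libraries alone, and that spread may be technical.

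JUN and FOS family proteins pair through leucine zippers to form AP-1, a transcription factor that binds short palindromic DNA elements. Their genes are kept with open, acetylated promoters and are transcribed in bursts after growth factor, cytokine or stress signals, which reach them through MAP kinases and the factors SRF, ELK1 and CREB1. In the myeloid lineage, JUN, FOS and EGR1 are known for their part in differentiation towards monocytes and macrophages.

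The promoters of 4 of the genes are shown here because the results turn on JUN, FOS and FOSB and because EGR1 carries the serum response elements typical of the class. Each sequence is the 250 bases before the RefSeq start site (GRCh38.p14), in the direction of transcription, for JUN at chr1:58784048-58784297 on the minus strand, FOS at chr14:75278578-75278827, FOSB at chr19:45467746-45467995 and EGR1 at chr5:138465229-138465478 on the plus strand. Capitals mark matches, on either strand, to the motifs searched.
JUN: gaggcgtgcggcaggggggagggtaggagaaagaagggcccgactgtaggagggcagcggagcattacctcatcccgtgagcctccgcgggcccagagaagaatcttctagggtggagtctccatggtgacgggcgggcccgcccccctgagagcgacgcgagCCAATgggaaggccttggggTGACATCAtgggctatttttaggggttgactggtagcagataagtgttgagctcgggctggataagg
FOS: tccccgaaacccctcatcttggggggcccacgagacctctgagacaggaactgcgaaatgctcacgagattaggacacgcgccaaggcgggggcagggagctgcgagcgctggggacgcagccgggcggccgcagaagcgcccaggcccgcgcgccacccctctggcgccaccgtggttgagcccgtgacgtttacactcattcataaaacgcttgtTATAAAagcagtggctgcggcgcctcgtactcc
FOSB: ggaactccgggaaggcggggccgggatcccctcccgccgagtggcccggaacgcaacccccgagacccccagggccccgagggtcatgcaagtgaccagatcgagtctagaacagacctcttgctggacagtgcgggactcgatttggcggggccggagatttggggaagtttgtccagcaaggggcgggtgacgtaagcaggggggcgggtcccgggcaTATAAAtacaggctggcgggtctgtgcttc
EGR1: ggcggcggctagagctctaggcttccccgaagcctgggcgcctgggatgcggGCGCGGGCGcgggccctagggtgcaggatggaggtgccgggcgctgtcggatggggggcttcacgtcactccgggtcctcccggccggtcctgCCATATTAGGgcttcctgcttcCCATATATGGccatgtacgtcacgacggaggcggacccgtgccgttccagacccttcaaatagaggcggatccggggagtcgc

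The motifs were the AP-1 element TGANTCA, the cAMP response element TGACGTCA, its variant TGACATCA, the CArG box of SRF, the EGR element GCGNGGGCG, CCAAT and TATAAA. The CArG box was found in 1.16% of the 35116 RefSeq promoter windows of this length and, among the members, in EGR1 alone, with matches from 105 to 96 and from 83 to 74 bases before the start. TGACATCA, the element through which JUN is known to act on its own promoter, lay 67 to 60 bases before the JUN start, and also in KLF6 and in a window of ATF3, against 2.37% of all windows. TATAAA stood 33 to 28 bases before the FOS start and 30 to 25 before the FOSB start, and it was found in JUNB and ATF3 as well (10.7% of all windows). JUND held the element TGACGTCA (1.65% of all windows). No member window held TGANTCA (6.57% of all windows). A match is a description of the letters, not a site or a cause, and no match says only that these letters are not in this window. The member windows ran from 44.8% GC in ATF3, which has 2 windows, to 74.8% in JUND, around the median of 58% over all windows.

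H3K9ac was high, beside the median region, at the main regions of all 10 genes. A main region is the strongest of its gene by rule. Of 54 tested related genes of the pathway, read by the same rule, 39 also had a main region averaging 50 CPM or more. Values are CPM, the reads of a region scaled to a total of 1000000 over all listed regions of that library, so a change shared by the whole genome could not be seen, and fewer marked cells cannot be told apart from less mark per cell. The median region had a mean of 3.57 CPM and was 401 bp wide, whereas the main regions of the members had means from 62.9 to 344.6 CPM and widths from 2442 to 7804 bp. In 9 of the 10 genes the main region covered a RefSeq start site of the set used here. JUND, IER2, FOSL2 and JUNB ranked 122, 132, 133 and 149 among all 47648 regions by mean CPM, and JUN and ATF3 ranked lowest at 4674 and 5110. Per length, JUND was highest at 75.7 CPM per kb and JUN lowest at 20.4, above the median of 9.79 CPM per kb over all regions.

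**Figure D1:**
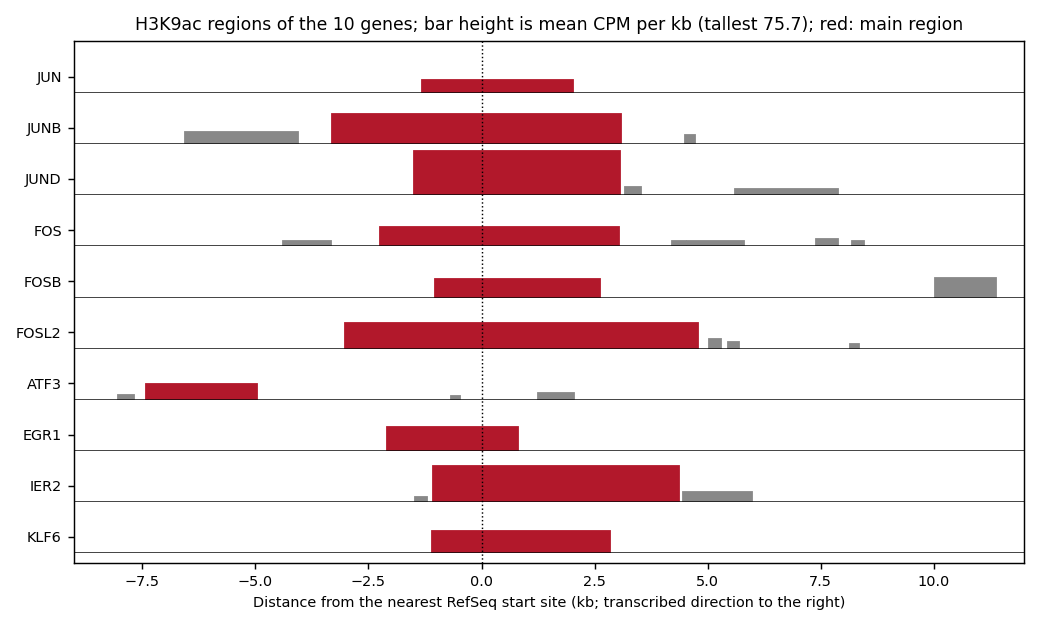
The 28 H3K9ac regions of the 10 genes, placed by distance in kb from the nearest RefSeq start site with the direction of transcription to the right; bar height is the mean CPM per kb over 6 libraries and red marks the main region. The main regions cover a RefSeq start site used here except in ATF3, where the main region lies upstream of the nearer one.

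The main regions are wide enough to take in neighbours, and reads there cannot be assigned to 1 of the genes. Those of JUNB and IER2 also overlapped HOOK2 and STX10, that of JUND the genes MIR3188 and LOC124904652, and those of JUN and FOSL2 the non-coding genes JUN-DT and FOSL2-AS1. In ATF3 the main region (chr1:212607611-212610052) lay inside the gene. It ran from -7407 to -4966 bp relative to the nearer start of the set used here and covered no start of that set. The set may not hold every start of ATF3, so this region may still be a promoter. The other 18 regions were weaker: 5 had means from 10.2 to 49.2 CPM and 13 had means from 1.12 to 8.04 CPM.

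Depth differed between the libraries. DMSO replicates 1, 2 and 3 held 719329, 1298443 and 7481097 reads in regions, as recovered from the values, and WM-1119 replicates 1 and 3 held 4542322 and 12705349. The same step gives 9996190 for WM-1119 replicate 2, which may be an effect of rounding. Regions below the median level held 8.95%, 7.19% and 2.35% of the CPM in the DMSO libraries and 3.35%, 2.70% and 2.19% in the WM-1119 libraries, so within each group replicate 3 held the least in weak regions and, taking that figure as it stands, was the deepest library. Because of this, each member was also set, library by library, against the 500 regions nearest to it in mean CPM: the median log2(CPM + 1) of those regions was subtracted, and the remainder is called the relative level. As a check of the cell type, all 8 myeloid marker genes (such as SPI1, CEBPA and CD33) had a main region of at least 10 CPM, as had 0 of 3 T cell markers, 1 of 3 erythroid markers (EPOR) and 0 of 3 markers of tissues outside blood.

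No member passed the test for a difference between WM-1119 and DMSO. Of the 44763 regions averaging 1 CPM or more, 0.0603% were called by limma on log2(CPM + 1) at a Benjamini-Hochberg adjusted p under 0.05, and 0 of the 10 main regions were. Of the 28 member regions, all of which entered the test, 0 were called. At an unadjusted p under 0.05, 4 main regions were higher with WM-1119 (JUND, FOS, ATF3 and EGR1) and 0 lower, against 2.58% and 10.8% of all regions. In a fit of the 14323 regions averaging 10 CPM or more, 901 were higher and 965 lower at that limit. The sign of the log2 changes followed the strength of the regions: 9 of 10 main regions lay above 0, where 22.8% of all tested regions and 85.6% of the 6457 regions averaging 50 CPM or more did. With quantile normalization 8 of 10 did (KLF6 turned), and with median centring all 10 (FOSB turned).

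**Figure D2:**
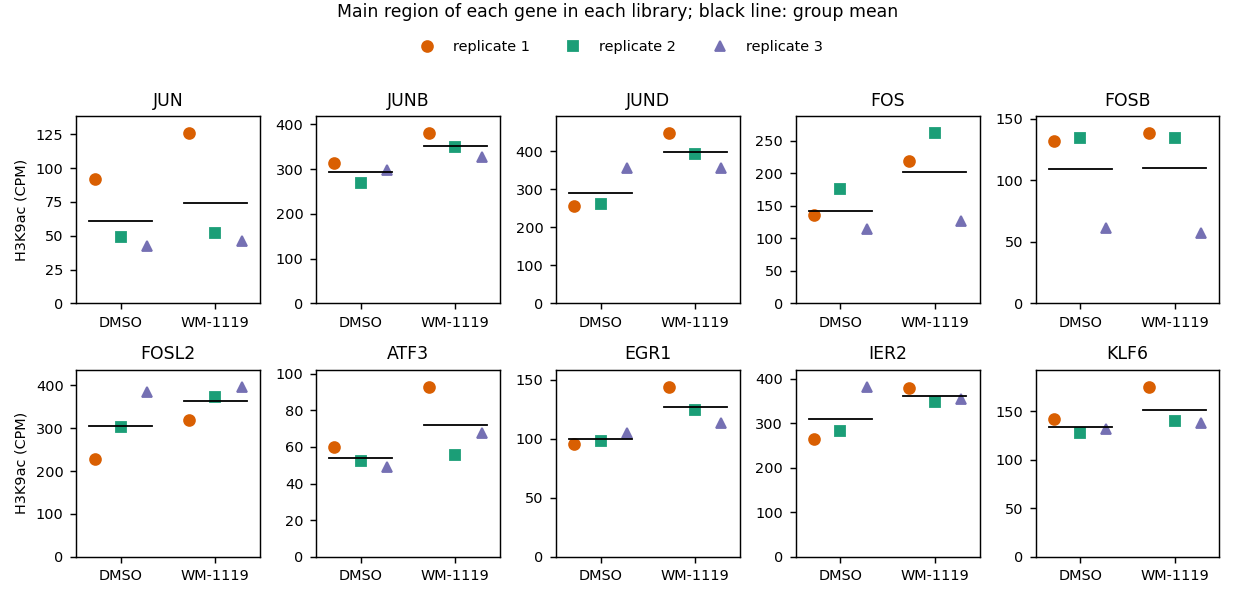
H3K9ac in CPM at the main region of each gene in each of the 6 libraries, with colour and shape for the replicate number and a black line for the group mean. The groups overlap in JUN, FOS and FOSB, where the libraries of a group stand in the same order by number in JUN and FOS and replicate 3 is far below the others in FOSB, and do not overlap in JUNB, JUND and EGR1.

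JUN, the founding member of AP-1 and the usual partner of FOS, had 91.8, 49.3 and 42.4 CPM in DMSO replicates 1, 2 and 3 and 126, 52.0 and 45.9 CPM in WM-1119 replicates 1, 2 and 3 at chr1:58782029-58785358. Replicate 1 stood far above the others in both groups, and the groups overlapped. The group means were 61.1 ± 26.7 and 74.5 ± 44.4 CPM (SD, n = 3 each), and limma gave a log2 change of 0.21 ± 0.52 (SE) and an adjusted p of 0.814.

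JUNB, a JUN relative with weaker activating power, had 313, 269 and 299 CPM with DMSO and 379.8, 349.5 and 326 CPM with WM-1119 at chr19:12788189-12794565. Each WM-1119 library lay above each DMSO library. The log2 change of 0.26 ± 0.14 (SE) did not pass (limma adjusted p = 0.380).

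JUND, the family member that most cells express without a stimulus, had 257, 260.3 and 355 CPM with DMSO and 447, 394 and 355 CPM with WM-1119 at chr19:18278553-18283107. The highest DMSO library and the lowest WM-1119 library were nearly level. The means were 291 ± 55.5 and 398 ± 46.0 CPM (SD, n = 3 each), and the log2 change of 0.46 ± 0.14 (SE) had the smallest unadjusted p of the members, 0.00161, with a limma adjusted p of 0.283.

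FOS, which needs a JUN protein as partner, had 136, 176 and 114 CPM with DMSO and 219, 261 and 126 CPM with WM-1119 at chr14:75276588-75281862. In both groups replicate 2 was highest and replicate 3 lowest, and WM-1119 replicate 3 lay below 2 of the DMSO libraries. Its log2 change of 0.47 ± 0.22 (SE) had an adjusted p of 0.371 (limma).

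FOSB, its close relative, had 132, 135 and 61.0 CPM with DMSO and 138, 134 and 57.1 CPM with WM-1119 at chr19:45466959-45470621. Replicate 3 of each group stood far below the other 4 libraries, and the groups overlapped. The means were 109 ± 41.9 and 109.9 ± 45.7 CPM (SD, n = 3 each) and the log2 change of -0.01 ± 0.53 (SE) had an adjusted p of 0.992 (limma). FOSL2, the FOS relative that lacks a strong activation domain, had 228, 303 and 385 CPM with DMSO and 320.3, 372 and 397 CPM with WM-1119 at chr2:28389831-28397634. Here replicate 3 was the highest of each group, and its log2 change of 0.28 ± 0.15 (SE) had an adjusted p of 0.381 (limma).

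ATF3, a bZIP protein induced by stress, had 59.8, 52.4 and 49.3 CPM with DMSO and 92.9, 55.4 and 67.7 CPM with WM-1119, and its log2 change of 0.39 ± 0.19 (SE) had an adjusted p of 0.372 (limma). EGR1, a zinc finger factor linked to monocytic differentiation, had 95.9, 98.6 and 105 CPM with DMSO and 144, 124 and 113 CPM with WM-1119 at chr5:138463398-138466296. Its groups did not overlap, and the log2 change of 0.34 ± 0.16 (SE) did not pass (limma adjusted p = 0.365).

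IER2, a nuclear early response protein, had 264, 283 and 382 CPM with DMSO and 378, 347 and 355 CPM with WM-1119 at chr19:13149331-13154769. KLF6, a Krüppel-like zinc finger factor, had 142, 128 and 132 CPM with DMSO and 175, 139 and 138 CPM with WM-1119 at chr10:3782379-3786298. The groups overlapped in both genes, and the log2 changes were 0.23 ± 0.14 for IER2 and 0.16 ± 0.16 for KLF6 (SE; limma adjusted p = 0.403 and 0.542).

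None of the 5 further regions averaging 10 CPM or more passed, and the 4 at members other than FOSB come first. Upstream of JUNB, in HOOK2 (chr19:12784928-12787424), H3K9ac was 65.3, 43.1 and 45.0 CPM with DMSO and 40.7, 51.5 and 49.7 CPM with WM-1119. Beyond JUND, in IQCN (chr19:18273735-18276026), it was 36.1, 29.3 and 10.8 CPM with DMSO and 15.9, 21.7 and 18.02 CPM with WM-1119. In both places the highest library was DMSO replicate 1, the shallowest, and the groups overlapped. Downstream of FOS (chr14:75283374-75284639) the values were 16.7, 16.9 and 4.41 CPM with DMSO and 8.81, 9.20 and 4.96 CPM with WM-1119, lowest in replicate 3 of each group as in the FOS main region. At the end of IER2 (chr19:13154854-13156382) they were 41.7, 23.9 and 17.0 CPM with DMSO and 22.0, 16.9 and 17.1 CPM with WM-1119. The log2 changes of these 4 regions ran from -0.51 downstream of FOS to -0.09 upstream of JUNB, with limma adjusted p-values of 0.407 to 0.780. The region downstream of FOSB, described below, had a log2 change of -0.09 (limma adjusted p = 0.793).

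In all, JUNB, JUND and EGR1 were higher without overlap of the groups, as were 3.76% of all tested regions and 18.3% of those averaging 50 CPM or more, and no main region was lower without overlap, as 13.2% of all regions were. The median log2 change of the 10 main regions was 0.27, beside -0.47 over all tested regions and 0.19 over the regions averaging 50 CPM or more. The weaker member regions lay on the other side of 0: 17 of the 18 had a log2 change below 0, with a median of -0.45. The test depended on the libraries used. Without DMSO replicate 3, JUND, FOSL2, EGR1 and IER2 passed as higher (limma adjusted p = 0.0057, 0.0167, 0.0396 and 0.0101). That fit set DMSO replicates 1 and 2, with 719329 and 1298443 reads in regions, against deeper WM-1119 libraries. In it 2394 of the 45326 regions were called higher and 17206 lower. Treatment and depth cannot be told apart there.

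Against regions of the same mean, no single member differed past the threshold between treatments. On the relative scale 0 of 10 passed, as did 0.00223% of all regions, and the adjusted p-values ran from 0.642 to 0.984 (limma). The relative log2 changes ran from -0.21 in FOSB to 0.25 in ATF3, with a median of 0.06 beside 0.01 over all regions, and 8 of 10 lay above 0 beside 51.8% of all regions and 53% of those averaging 50 CPM or more. In JUND the relative change was 0.24 ± 0.10 (SE), with an unadjusted p of 0.0306, and 3.53% of all regions were higher at an unadjusted p under 0.05. No main region had non-overlapping groups on this scale, where 6.33% of all regions were higher and 6.61% lower without overlap. Of the 28 member regions 2 were higher without overlap, both weak ones inside ATF3: chr1:212566665-212567448, with a relative change of 0.76 ± 0.32 (SE), and chr1:212606977-212607326, with 0.64 ± 0.39 (limma adjusted p = 0.648 and 0.742).

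**Figure D3:**
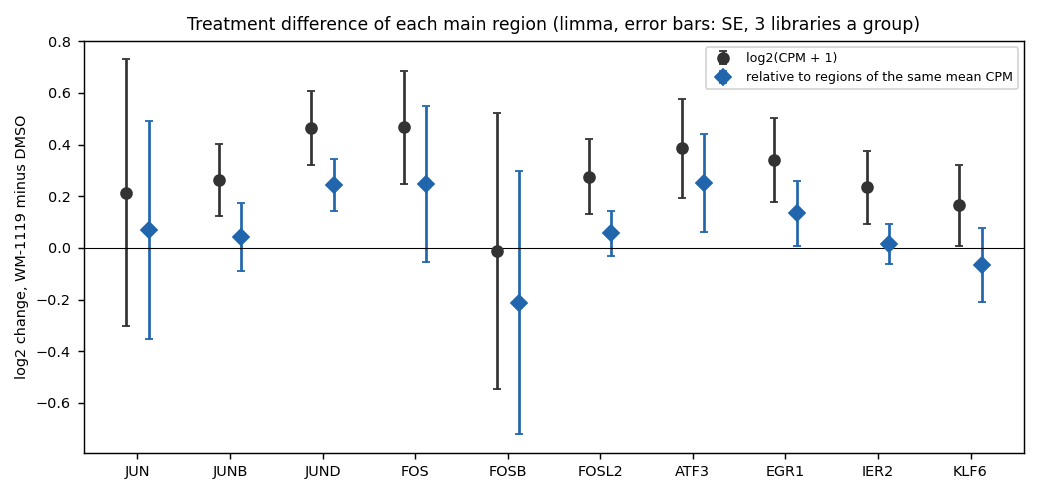
The log2 change, WM-1119 minus DMSO, of each main region with its SE from limma (3 libraries a group), on log2(CPM + 1) and on the relative scale. The error bars of JUN, FOS and FOSB are the widest, and on the relative scale the values run from -0.21 to 0.25.

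Other genes of the pathway did not pass either. They were read by the same main region rule in 4 lists, and in each list 0 genes were called. Of 13 AP-1 and bZIP partner genes, 8 had a log2 change above 0 (median 0.16); those with the smallest p were ATF4 (0.37), JDP2 (0.30) and MAFF (0.45). Of 12 other early transcription regulators, 8 lay above 0 (median 0.20), led by KLF10 (0.43), KLF4 (0.38) and NR4A3 (0.32). Of 13 tested early feedback genes, which encode phosphatases, mRNA decay factors and other brakes on the response, 9 lay above 0 (median 0.14), led by DUSP6 (0.41), TOB1 (0.38) and ZFP36 (0.27), and SIK1 had no region. Of 16 upstream factors and kinases, 14 lay above 0 (median 0.24), led by MAPK14 (0.37), CREB1 (0.37) and MEF2A (0.36). The adjusted p-values over the 4 lists ran from 0.329 to 0.997 (limma).

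In CPM, JUN, FOS and FOSB differed between libraries of different replicate number, and the difference went the same way in both groups. A moderated F test of the number beside treatment was run with limma across all regions after these values had been seen. On log2(CPM + 1) it called 1.32% of the 44763 regions, 4.24% of those averaging 50 CPM or more, and 3 of the 10 main regions: FOSB (adjusted p = 1.68e-09), JUN (2.20e-07) and FOS (0.000792).

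The 3 genes did not share a single pattern. In JUN, replicate 1 was 2.17-fold above replicate 3 with DMSO and 2.74-fold above it with WM-1119, while replicates 2 and 3 were near each other, at 1.16-fold and 1.13-fold. In FOSB, replicates 1 and 2 were both above replicate 3, by 2.17-fold and 2.21-fold with DMSO and by 2.42-fold and 2.35-fold with WM-1119. In FOS, replicate 2 was 1.54-fold and 2.07-fold above replicate 3, and replicate 1 was 1.20-fold and 1.74-fold above it.

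The counting intervals of DMSO replicates 1 and 3 did not overlap in JUN and FOSB. The 66 reads at JUN in DMSO replicate 1 gave an exact 95% Poisson interval of 71.0 to 117 CPM, and the 317 reads in DMSO replicate 3 gave 37.8 to 47.3 CPM. At FOSB the 95 reads of DMSO replicate 1 gave 107 to 161 CPM, and the 456 reads of DMSO replicate 3 gave 55.5 to 66.8 CPM. For FOS the interval of DMSO replicate 1, 111 to 166 CPM, overlapped that of DMSO replicate 3, 106 to 122 CPM. These intervals cover counting error only, take the scaling to CPM as exact and are given for genes chosen after their values were seen. The TMM scaling described below has factors of 1.54 for DMSO replicate 1 and 0.772 for DMSO replicate 3. It would lower the JUN and FOSB levels of the first and raise those of the second, so the gap between these intervals holds for CPM only.

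Among the 500 regions of the same mean, JUN lay at the 98.4th percentile in DMSO replicate 1 and above all 500 in WM-1119 replicate 1, and below all 500 in replicate 3 of both groups. FOSB lay at the 98.8th and 99.8th percentile in DMSO replicates 1 and 2 and at the 93.4th and 96th in WM-1119 replicates 1 and 2, and again below all 500 in replicate 3 of both groups. FOS was above 0.2% of them in each replicate 3 and above all of them in WM-1119 replicate 2. The places of these genes among regions of like strength thus ran from end to end of the range. KLF6 lay at percentiles of 91.2 and 88.2 in replicate 1 and of 5.4 and 7.4 in replicate 3 of DMSO and WM-1119, and EGR1 at 56 and 94.2 against 5.4 and 15. By contrast FOSL2 kept between 64 and 78.6 and IER2 between 71.2 and 81.2 in all 6 libraries. These 2 genes, like JUND and JUNB, rank so near the top that most of their 500 nearest regions are weaker than they are.

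**Figure D4:**
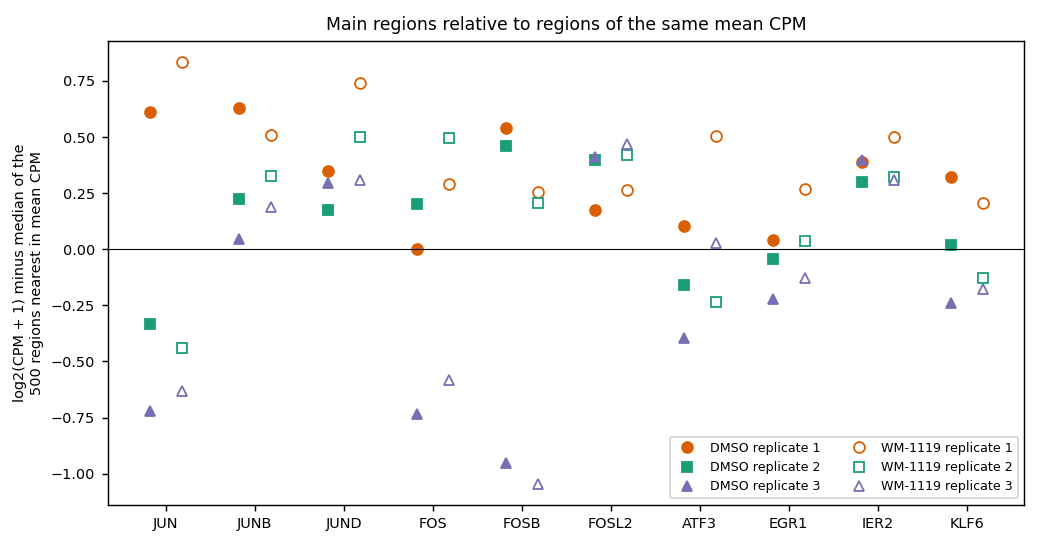
Relative level of each main region, log2(CPM + 1) minus the median of the 500 regions nearest in mean CPM, in each library (filled, DMSO; open, WM-1119; colour and shape, replicate number). In FOSB both replicate 3 libraries lie far below the other 4 libraries, in JUN both replicate 1 libraries lie far above, and FOSL2 and IER2 keep within a narrow band.

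On the relative scale the F test called 0.882% of all regions, 4.15% of those averaging 50 CPM or more, and 4 of 10 main regions: FOSB (limma adjusted p = 4.54e-06), FOS (4.5e-05), JUN (0.000139) and JUNB (0.0144). JUN was 1.11 lower in replicate 2 and 1.40 lower in replicate 3 than in replicate 1 (log2, over both groups). FOSB was 1.40 lower in replicate 3 and 0.07 lower in replicate 2 than in replicate 1, and FOS was 0.80 lower in replicate 3 and 0.20 higher in replicate 2. The differences in JUNB, where most of the 500 nearest regions are weaker, were smaller, at -0.29 and -0.45. On log2(CPM + 1) those of JUNB were -0.17 and -0.14 and did not pass (limma adjusted p = 0.697). The other 6 members did not pass, with adjusted p-values from 0.0686 in KLF6 to 0.658 in IER2.

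Replicate 3 had the lowest relative level of both groups in 6 of 10 members (JUN, JUNB, FOS, FOSB, EGR1 and KLF6), beside 12.3% of all regions and 14.2% of those averaging 50 CPM or more. Replicate 1 had the highest of both groups in 7 of 10, beside 15% and 24.4%. In CPM, DMSO replicate 3 was not the lowest DMSO library in JUNB, EGR1 and KLF6. The second region of FOSB, 10 kb downstream of its start over the selenocysteine tRNA gene TRU-TCA1-1 (chr19:45478022-45479376), did not follow its main region: it had 50.05, 43.9 and 43.8 CPM with DMSO and 41.8, 47.2 and 40.5 CPM with WM-1119 (limma adjusted p for the number = 0.903). None of the other 18 member regions passed on either scale.

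Early response genes outside the 10 differed with the number too. Whether the lists below differ from each other was not tested. The members and lists were chosen with earlier results of these data known, so the shares beside their counts are no test of an excess. On the relative scale 7 of the 12 other early regulators passed (EGR3, NR4A2, NR4A3, KLF2, KLF4, KLF10 and NFIL3). So did 4 of 13 feedback genes (DUSP1, PPP1R15A, SPRY2 and ZFP36L2), 1 of 16 upstream factors (MEF2D) and 0 of 13 AP-1 partners. Over all regions 0.882% passed, and 4.15% of those averaging 50 CPM or more. Of the 54 tested genes of the lists, 39 had a main region of that strength. On log2(CPM + 1) the counts were 3 early regulators (EGR3, NR4A2 and KLF2), 2 feedback genes (DUSP1 and ZFP36L2), 1 upstream factor (MEF2D) and 2 AP-1 partners (FOSL1 and MAFF). The shares beside them were 1.32% of all regions and 4.24% of those averaging 50 CPM or more. DUSP1, the phosphatase that switches off MAP kinases, had 117, 87.0 and 75.4 CPM with DMSO and 164, 119 and 76.2 CPM with WM-1119. NR4A2, an orphan nuclear receptor, had 128, 118 and 84.7 CPM with DMSO and 168, 137 and 102 CPM with WM-1119. In both genes replicate 1 was highest and replicate 3 lowest in each group, and they are given here after their values were seen.

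**Figure D5:**
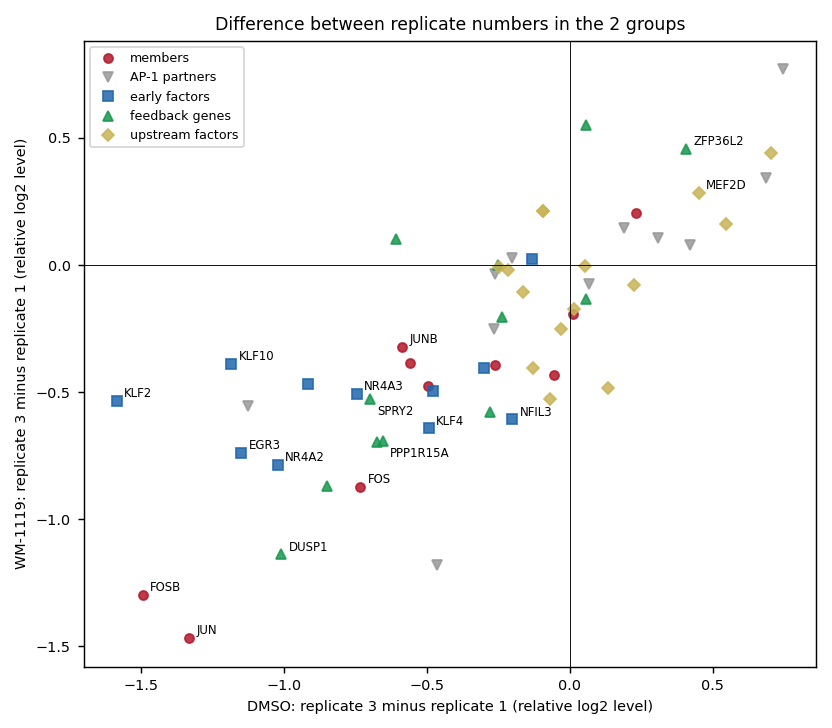
Replicate 3 minus replicate 1 of the relative log2 level in DMSO (x axis) and in WM-1119 (y axis), 1 point for each main region averaging 10 CPM or more, by gene list; names mark genes that passed the F test of the number. FOSB and JUN lie farthest down, at 1.30 and 1.47 below 0 in WM-1119, and the early regulators and feedback genes lie mostly in the lower left.

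The test of the number rests on limma and its settings. Without its trend and robust options 0 regions and 0 members passed, with 4104 regions and 2 members at an unadjusted p under 0.05, and the adjusted p was 0.472 for JUN and FOSB and 0.475 for FOS. edgeR, run with TMM scaling on the reads recovered from 5 libraries, called 199 regions and 0 members. The smallest unadjusted edgeR p of a member was 0.592. The TMM factors were 1.54, 1.25 and 0.772 for DMSO replicates 1, 2 and 3, and 0.881 and 0.761 for WM-1119 replicates 1 and 3. A larger factor lowers the scaled level of a library, so the gaps given in CPM depend on the scaling, more with DMSO than with WM-1119. Whether the scaling or the model made edgeR differ was not tested. Leaving out 1 library on the relative scale gave 3 to 7 members, and JUNB was lost without DMSO replicate 3. JUN and FOSB passed on both scales without any 1 library, and FOS passed on the relative scale without any 1, whereas on log2(CPM + 1) it was lost without DMSO replicate 2 (limma adjusted p = 0.660) or WM-1119 replicate 2 (0.782). The depth of the libraries and their share of CPM in weak regions also move with the number, and their part in the result was not tested beyond the comparison with regions of the same mean.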

How the data were processed

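H3K9ac ChIP-seq libraries of MOLM-13, 3 with DMSO and 3 with WM-1119, were compared. Per the submitters' processing notes, bedtools, MACS2, SAMtools and Bowtie2 were used on the build hg38, with no versions stated. Region calling and merging settings are not given in the sources used here. Values were deposited per region and library. The authors named the deposited values TPM, but they are CPM: each is a whole multiple of 1 step per library, whatever the width, and they sum to 1000000. Reads were recovered from the steps in 5 libraries; in WM-1119 replicate 2 the step lay too near a round value. In each library 100% of the values up to 100 reads came out whole to within 0.02. Starts were taken as counted from 0, and 1 was added.

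The main test was limma 3.58.1 (R 4.3.3), with trend and robust, treatment only, on log2(CPM + 1) of regions averaging 1 CPM or more, with Benjamini-Hochberg adjustment. On the relative scale, members were left out of the 500 nearest regions and the variance trend followed the level before centring. edgeR 4.0.16 (quasi-likelihood; TMM or DESeq2 1.42.0 size factors) was run on recovered reads. Figures were drawn with matplotlib 3.10.9, and tables made with scipy 1.17.1, numpy 2.4.6 and pandas 2.3.3 in Python 3.11.15. Genes and promoters came from RefSeq (GRCh38.p14), and all 10 members and all 55 related symbols matched by name. The fits were run on simulated counts with the mean levels and depths of these libraries, a fixed dispersion and planted changes. Apart from these changes, the expected share of each region was the same in every library. The simulation therefore says nothing about the differing share of CPM in weak regions. The result of 1 further marker list is not reported here.

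Named were all 10 members, their main regions in every library, and per related list up to 3 genes with the smallest p; genes named for the replicate number were chosen after their values were seen. The members and lists were chosen with earlier results of these data known. Alternatives were pseudocounts of 0.1 and 5, other filters, normalizations, numbers of nearest regions (200 and 1000), windows, tools, a replicate block and leaving out each library.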

Additional observations from a re-analysis of the deposited data

How the results depend on the processing

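The count of regions called between WM-1119 and DMSO, 27, became 2 among regions averaging 10 CPM or more, 1 with quantile normalization, 2 with median centring, 0 without trend and robust (33 higher, 4903 lower by an unadjusted p under 0.05), 0 with DMSO replicates 1 and 2 both left out (1338 and 728), 0 with edgeR and TMM (349 and 1791) or DESeq2 size factors (430 and 1832), and 0 to 19600 without 1 library. Relative to regions of the same mean, the count of 1 became 6 with a pseudocount of 0.1, 0 with 5 (1433 and 1466), 0 without trend and robust (1372 and 1787), 2 without DMSO replicates 1 and 2, and 0 to 350 without 1 library. Members were called only with the replicate block or without DMSO replicate 3. The F test of the number, 591 regions, gave 917 with a pseudocount of 0.1, 1036 among regions averaging 10 CPM or more, 0 without trend and robust (4104 unadjusted), 199 with edgeR and 73 to 11153 without 1 library. The cause of these moves was not tested.

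With the replicate number as a block, 496 regions passed between treatments and 159 on the relative scale; JUND (limma adjusted p = 0.0257) and FOS (0.0499) passed on log2(CPM + 1) and no member on the relative scale. Deviations of same-numbered libraries correlated at r = 0.22, 0.053 and 0.33 on log2(CPM + 1) and 0.096, 0.065 and 0.19 on the relative scale for numbers 1, 2 and 3, across regions. Every library correlated best with its own number on the relative scale, as did all but DMSO replicate 2 on log2(CPM + 1), a hint from the data and not the design. The labels do not say what the number stands for, so the libraries are taken to share only a number.

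On log2(CPM + 1), the sign of a log2 change turned as follows. JUN ran from -0.24 to 0.54 without 1 library. FOSB ran from -0.38 to 0.40 without 1 library and was 0.73 without DMSO replicates 1 and 2, 0.76 with median centring, 0.35 with edgeR and TMM, 0.42 with edgeR and DESeq2 size factors. FOSL2 was -0.088 without DMSO replicates 1 and 2. IER2 was -0.085 without DMSO replicates 1 and 2. KLF6 was -0.053 with quantile normalization. On the relative scale the same was seen in 7 members. JUN ran from -0.35 to 0.48 without 1 library. JUNB ran from -0.082 to 0.21 without 1 library. FOS ran from -0.046 to 0.56 without 1 library. FOSB ran from -0.71 to 0.20 without 1 library and was 0.75 without DMSO replicates 1 and 2. FOSL2 ran from -0.019 to 0.12 without 1 library and was -0.025 without DMSO replicates 1 and 2. IER2 ran from -0.047 to 0.051 without 1 library and was -0.022 without DMSO replicates 1 and 2. KLF6 ran from -0.19 to 0.076 without 1 library and was 0.20 without DMSO replicates 1 and 2. For the sum over the regions of a gene it was seen in JUN and FOSB. JUN ran from -0.24 to 0.54 without 1 library. FOSB ran from -0.29 to 0.26 without 1 library.

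The median log2 change over all regions, -0.47, was 0.30 with median centring and 0.0087 with quantile normalization. Depth limits the weak regions: 3 reads, the limit that a count of 0 allows, were worth 4.17 CPM in DMSO replicate 1 and 0.236 CPM in WM-1119 replicate 3. Of the log2 changes of single members under other settings, 12 turned their sign on log2(CPM + 1), 18 on the relative scale and 5 for the sum over a gene's regions; 152, 132 and 75 kept direction and call.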

Other observations

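Of the 12 related genes whose relative level differed with the replicate number, 10 were lower in replicate 3 than in replicate 1 over both groups and 2 were higher. ZFP36L2, which encodes an mRNA decay factor, had 310.0, 411 and 588 CPM in DMSO replicates 1, 2 and 3 and 409, 596 and 605 CPM in WM-1119 replicates 1, 2 and 3 (limma adjusted p on the relative scale = 0.00628). MEF2D, a transcription factor downstream of MAP kinases, had 406, 553 and 795 CPM with DMSO and 447, 528 and 588 CPM with WM-1119 (0.0101). In both genes replicate 1 was the lowest of its group. EGR3, a relative of EGR1, had 117, 77.0 and 64.6 CPM with DMSO and 97.7, 61.1 and 60.0 CPM with WM-1119 (0.00525), with replicate 1 highest in each group. KLF2, a Krüppel-like factor, had 63.9, 44.7 and 22.6 CPM with DMSO and 49.5, 63.2 and 34.9 CPM with WM-1119 (0.0281), with replicate 3 lowest in each group. PPP1R15A, a stress-induced phosphatase subunit, had 163, 173 and 143 CPM with DMSO and 204, 181 and 130.4 CPM with WM-1119 (0.00247), again lowest in replicate 3.

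The sum over all regions of a gene includes its main region, which made up most of the CPM at FOSB and FOS. These sums therefore give no separate support for the pattern of the main regions. The sum at FOSB was 182, 179 and 105 CPM with DMSO and 180.1, 181 and 97.6 CPM with WM-1119, and the sum at FOS was 192, 216 and 129 CPM with DMSO and 244, 281 and 139.8 CPM with WM-1119. In both, replicate 3 was the lowest of each group. Between treatments the exact two-sided permutation test of the 10 sums gave p from 0.1, the smallest that 3 against 3 can give, in JUND and EGR1 to 0.8 in FOSB.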
